A study of Mus musculus with 4 samples.

Results

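The tyrosinase family was described here through every probe set that the array's annotation assigned to exactly 1 of the symbols Tyr, Tyrp1 and Dct. These were 7 of the 45037 probe sets that were not controls, for 3 of 18193 genes named by a probe set of their own: 3 of Tyr (Entrez gene 22173), 3 of Tyrp1 (Entrez gene 22178) and 1 of Dct (Entrez gene 13190). No probe set named a family gene among several symbols. The study measured total RNA of cultured mouse skin melanocytes of Balb/c background on 4 Affymetrix expression arrays, each array carrying 1 sample. The 2 arrays of the non-pigmented line came from cells homozygous for a point mutation in the tyrosinase gene, and the 2 arrays of the pigmented line from cells that are wild type because the mutation was corrected. Both lines were grown in RPMI medium with serum, 2-mercaptoethanol and the phorbol ester TPA (tetradecanoyl phorbol acetate), an activator of protein kinase C that is commonly used to keep melanocytes growing in culture. The labels give neither the position of the mutation, nor the way it was corrected, nor whether a line is a single clone or whether the arrays of a line came from separate cultures. A p-value here therefore measures no more than how far these 4 samples spread, and that spread may be technical.

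The 3 genes encode related metal-binding glycoproteins that span the membrane of the melanosome, the organelle in which melanin is made. Tyrosinase (Tyr) is the copper enzyme that oxidises tyrosine to dopaquinone and so starts the synthesis of all melanin. Dct (dopachrome tautomerase, also called Tyrp2) converts dopachrome to a carboxylated indole, and Tyrp1 acts on that indole downstream and also stabilises tyrosinase in the mouse. Loss of Tyr gives albinism, and mutations of Tyrp1 and Dct give the brown and slaty coat colours. Mitf, the leading transcription factor of melanocytes, binds E boxes with the core CATGTG, and the extended form of this element in pigment gene promoters is known as the M box.

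The family shares such an element, and it is shown first because it is the longest run of bases common to the promoters of all 3 genes. In windows from 250 bases before to 50 bases after the annotated gene start (RefSeq, build GRCm38.p6, the C57BL/6J reference and not the sequence of these lines), the longest run found on the gene's strand in all 3 was the 10-base run GTCATGTGCT, present at 1 place in each window. It is printed in capitals with the 10 bases on either side, 5′ to 3′ on the strand of the gene.

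Tyr, chr7:87493516-87493545, minus strand: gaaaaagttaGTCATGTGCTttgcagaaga
Tyrp1, chr4:80834155-80834184, plus strand: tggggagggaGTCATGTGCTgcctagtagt
Dct, chr14:118052379-118052408, minus strand: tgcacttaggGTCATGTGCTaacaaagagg

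The first base of the run lay at -23 from the annotated start of Tyr, at -48 from that of Tyrp1 and at -152 from that of Dct. The window of Tyrp1 belongs to a transcript that starts 90 bases inside the span RefSeq gives the gene, so that the run lies upstream of that transcript but within the gene's span. The run was found on either strand in 61 of 32851 promoter windows (0.186%, Wilson 95% interval 0.145 to 0.238), which belonged to 42 of 27025 genes. The interval treats windows as independent, although several can belong to the same gene. The shorter core CATGTG, which the run contains, was found in 14.2% of windows on either strand. Dct held a second copy at -232, on the opposite strand, whereas Tyr and Tyrp1 held 1 copy each. The related E box CACGTG was found in 7.15% of windows and in none of the 3. A match of letters is a description of these windows and not a measured binding site.

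All 7 probe sets were brighter in both pigmented arrays than in both non-pigmented arrays. The smallest gap was that of the Tyrp1 probe set 1439409_x_at, whose dimmer pigmented signal was 1.52 times the brighter non-pigmented one, and the widest was that of the Tyr probe set 1456095_at, with 145 times. Of the 27022 probe sets with a mean above the filter on dim ones, 26.5% also had both pigmented arrays above both non-pigmented arrays, so this order alone is common on these arrays. All 7 passed the filter. Differences between the lines were tested with limma on log2(signal + 16) over the 27022 probe sets and called at a Benjamini-Hochberg adjusted p under 0.05. By this rule 4 of the 7 rose in the pigmented line, 2 of Tyr, 1 of Tyrp1 and the only one of Dct, against 0.585% of all probe sets tested. Of these 4, the Tyr probe set 1456095_at had a non-pigmented mean under the filter and passed it through the pigmented arrays alone, so its call is given as a description only. The other 3 probe sets did not pass the test. The smallest absolute log2 difference among all called probe sets was 2.20, and the log2 differences of the 7 ranged from 2.11 to 7.21.

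**Figure D1:**
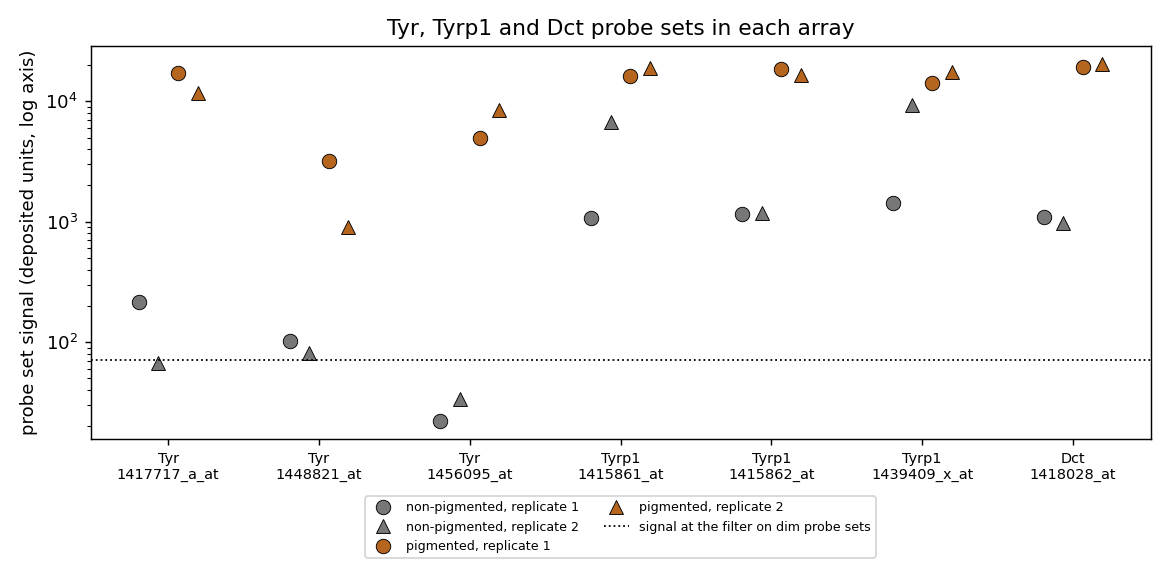
Deposited signal (log axis) of the 7 probe sets of Tyr, Tyrp1 and Dct in each of the 4 arrays, with grey for the non-pigmented and brown for the pigmented line, circles for replicate 1 and triangles for replicate 2. The dotted line marks the signal of 70.7 at the filter. Both brown points lie above both grey points for every probe set, and the grey triangle of Tyrp1 1415861_at (6732) and 1439409_x_at (9313) stands far above the grey circle.

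The replicate arrays of each line differed in the 3′ to 5′ signal ratios of control probe sets, taken here as a reading of RNA integrity. The 3′ to 5′ signal ratio of Gapdh was 0.903 and 0.864 in replicate 1 of the non-pigmented and the pigmented line and 20.2 and 16.8 in replicate 2. The sample titles carry 2 dates, and non-pigmented replicate 1 shares its date with pigmented replicate 2. Comparisons within either kind of pair are given below as the difference of 2 single arrays. The replicate 2 arrays are called low 5′ arrays in what follows and the replicate 1 arrays intact. These names, and the term RNA integrity, stand for the Gapdh ratio alone, and what made the ratios differ was not tested. A fit with the pairs of like Gapdh ratio as a block is given below as an alternative. Beyond that fit, the part of RNA integrity in any result was not tested.

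Tyr, the gene that carries the mutation in the non-pigmented line, was far brighter in the pigmented line in all of its probe sets. The probe set 1417717_a_at, of a kind designed to match several transcripts of a gene, gave signals of 214 and 67.2 in non-pigmented replicates 1 and 2 and of 17306 and 11698 in pigmented replicates 1 and 2. The lines did not overlap, and in either line the low 5′ array was the dimmer. Its non-pigmented signal of 67.2 lay just under the 70.7 at the filter. On the log2 scale the non-pigmented arrays averaged 7.11 ± 1.04 (SD, n = 2) and the pigmented arrays 13.80 ± 0.40 (SD, n = 2). It rose by a log2 difference of 6.69 ± 0.62 (SE), or 103-fold with a 95% interval of 36.1 to 294, with an adjusted p of 0.0160 by limma. Between single arrays the difference was 6.24 for the pair of intact RNA and 7.14 for the low 5′ pair, and it was 5.67 and 7.70 for the pairs that share a date.

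The probe set 1456095_at of Tyr gave signals of 22.1 and 33.9 in the non-pigmented and of 4931 and 8444 in the pigmented arrays. Here the low 5′ array was the brighter of either line, the reverse of 1417717_a_at. Both non-pigmented signals lay under 70.7, the signal at the filter, so this probe set was tested only because it was bright in the pigmented line. The log2 difference of 7.21 ± 0.51 (SE; adjusted p of 0.0128) is therefore a description, and its size depends on the pseudocount: it was 7.83 with a pseudocount of 1 and 6.15 with 64. No detection call was used here, so whether the non-pigmented signal is above background is unknown.

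The third Tyr probe set, 1448821_at, gave signals of 102 and 80.5 in the non-pigmented and of 3194 and 897 in the pigmented arrays. The pigmented arrays differed 3.56-fold between themselves, the widest gap within the pigmented line among the 7 probe sets, and the low 5′ array was the dimmer. The log2 difference was 4.01 ± 0.69 (SE), with a 95% interval of 2.31 to 5.71, and did not pass the test (adjusted p of 0.0641 by limma). It passed without pigmented replicate 1 (difference 3.10, adjusted p of 0.0366), without pigmented replicate 2 (4.91, 0.0100) and with the RNA integrity pair as a block (4.01, 0.0135). In that last fit 5 of the 7 family probe sets were called higher, against 1.94% of all.

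The 3 probe sets of Tyr did not keep a constant ratio to each other. The ratio of 1417717_a_at to 1448821_at within an array was 2.10 and 0.834 in the non-pigmented arrays and 5.42 and 13.0 in the pigmented arrays. The ratio of 1448821_at to 1456095_at was 4.60 and 2.37 in the non-pigmented arrays and 0.648 and 0.106 in the pigmented arrays. The log2 differences between the lines spanned 3.21 across the 3 probe sets, a wider span than in 98.5% of the 5721 genes with at least 2 tested probe sets, where the median span was 0.67. The positions of the probes in the transcript were not used here. All 12 single-array differences of Tyr, from 3 probe sets and 4 pairs of arrays, were positive, which follows from the order of the arrays given above. The smallest was 2.96 (1448821_at, pigmented replicate 2 minus non-pigmented replicate 1) and the largest 7.80 (1456095_at, the same pair of arrays).

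**Figure D2:**
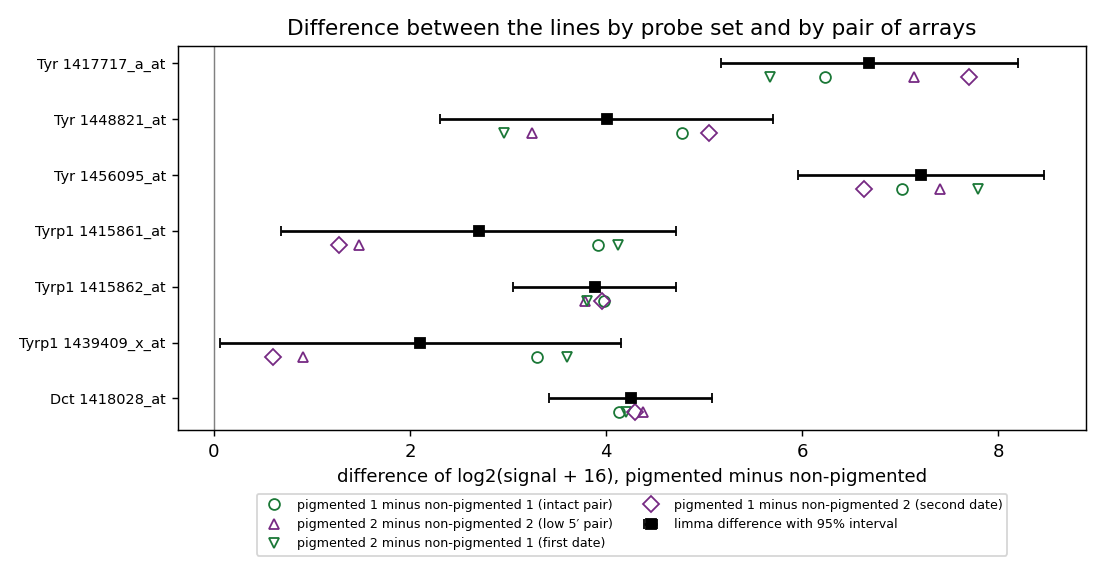
Difference of log2(signal + 16), pigmented minus non-pigmented, for each probe set. Black squares give the limma estimate with its 95% interval, and open symbols the 4 differences between single arrays, coloured by the non-pigmented array used (green replicate 1, purple replicate 2). The symbols of Dct and of Tyrp1 1415862_at lie within a narrow range, while those of Tyrp1 1415861_at and 1439409_x_at fall into groups by non-pigmented array.

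Dct, the tautomerase, was measured by a single probe set, so agreement between probe sets could not be examined. Its probe set 1418028_at gave signals of 1094 and 970 in the non-pigmented and of 19395 and 20482 in the pigmented arrays. The arrays of a line differed 1.13-fold and 1.06-fold, and the gap between the lines was at least 17.7-fold. On the log2 scale the non-pigmented arrays averaged 10.03 ± 0.12 (SD, n = 2) and the pigmented arrays 14.28 ± 0.06 (SD, n = 2). Dct rose by a log2 difference of 4.25 ± 0.34 (SE), or 19.1-fold with a 95% interval of 10.7 to 33.9, with an adjusted p of 0.0137. The 4 single-array differences ran from 4.13 (the pair of intact RNA) to 4.38 (the low 5′ pair), with 4.21 and 4.30 for the pairs that share a date. In the non-pigmented line the signal of Dct was well above the 70.7 at the filter, unlike those of 1456095_at of Tyr.

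Tyrp1 gave different answers in different probe sets. The probe set 1415862_at gave signals of 1168 and 1180 in the non-pigmented and of 18653 and 16509 in the pigmented arrays. The arrays of a line differed 1.01-fold and 1.13-fold. This probe set rose by a log2 difference of 3.88 ± 0.34 (SE), or 14.8-fold with a 95% interval of 8.30 to 26.2, with an adjusted p of 0.0147.

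The other 2 Tyrp1 probe sets resembled it in 3 arrays and departed from it in non-pigmented replicate 2. The probe set 1415861_at gave signals of 1066 and 6732 in the non-pigmented and of 16348 and 18835 in the pigmented arrays. Its non-pigmented arrays differed 6.31-fold, and the log2 difference between the lines was 2.70 ± 0.82 (SE), with a 95% interval of 0.69 to 4.71 and an adjusted p of 0.267. The probe set 1439409_x_at, of a kind in which some probes also match other sequences, gave signals of 1426 and 9313 in the non-pigmented and of 14189 and 17548 in the pigmented arrays. Its non-pigmented arrays differed 6.53-fold, and the log2 difference was 2.11 ± 0.84 (SE), with a 95% interval of 0.06 to 4.15 and an adjusted p of 0.412. Its difference between single arrays was 3.30 for the pair of intact RNA and 0.91 for the low 5′ pair, and 3.61 and 0.61 for the pairs that share a date. Neither probe set passed the test.

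The call of 1415862_at held without either non-pigmented array, whereas the missing calls of the other 2 depended on non-pigmented replicate 2. Without non-pigmented replicate 2, the log2 difference was 4.02 for 1415861_at (adjusted p of 0.0303), 3.89 for 1415862_at (0.0321) and 3.45 for 1439409_x_at (0.0447), and all 3 passed. Without non-pigmented replicate 1 they were 1.38 (0.368), 3.88 (0.0252) and 0.76 (0.870), and only 1415862_at passed. The ratio of 1415861_at to 1415862_at within an array was 0.913, 0.876 and 1.14 in non-pigmented replicate 1 and pigmented replicates 1 and 2, but 5.70 in non-pigmented replicate 2. The ratio of 1415861_at to 1439409_x_at was 0.748 and 0.723 in the non-pigmented arrays, so these 2 probe sets were high together in non-pigmented replicate 2. The annotation traces 1415861_at and 1415862_at to the same sequence record. Non-pigmented replicate 2 was also a low 5′ array and had the highest signal of the 18S ribosomal RNA control at its 3′ end (5329, against 25.6 to 973 in the other 3 arrays); the part of these in the Tyrp1 signal was not tested.

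**Figure D3:**
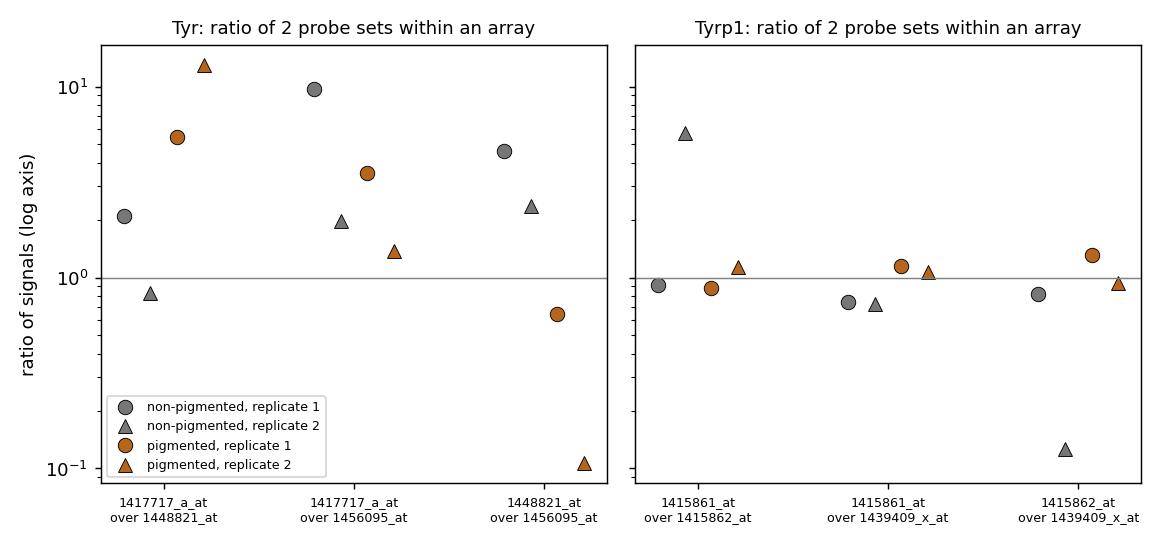
Ratio of the signals of 2 probe sets of one gene within each array (log axis), for Tyr at the left and Tyrp1 at the right, with grey for the non-pigmented and brown for the pigmented line. For Tyrp1, non-pigmented replicate 2 (grey triangle) stands apart at 5.70 and 0.127 in the ratios that involve 1415862_at, while for Tyr the ratios differ between all 4 arrays.

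Set against the spread of the whole array, the family held some of the most and some of the least even probe sets. The median absolute log2 difference between the replicate arrays was 0.52 in the non-pigmented and 0.64 in the pigmented line over the 27022 probe sets. In the non-pigmented line the difference of Tyrp1 1439409_x_at (2.69) exceeded that of 98.6% of probe sets and that of 1415861_at (2.64) exceeded 98.5%, while that of 1415862_at (0.01) exceeded 1.45%. For Dct it was 0.17 in the non-pigmented and 0.08 in the pigmented line, larger than in 17.7% and 6.53% of probe sets. For Tyr 1417717_a_at it was 1.47 in the non-pigmented line and for Tyr 1448821_at 1.81 in the pigmented line, each larger than in about 90% of probe sets (89.6% and 90.4%).

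**Figure D4:**
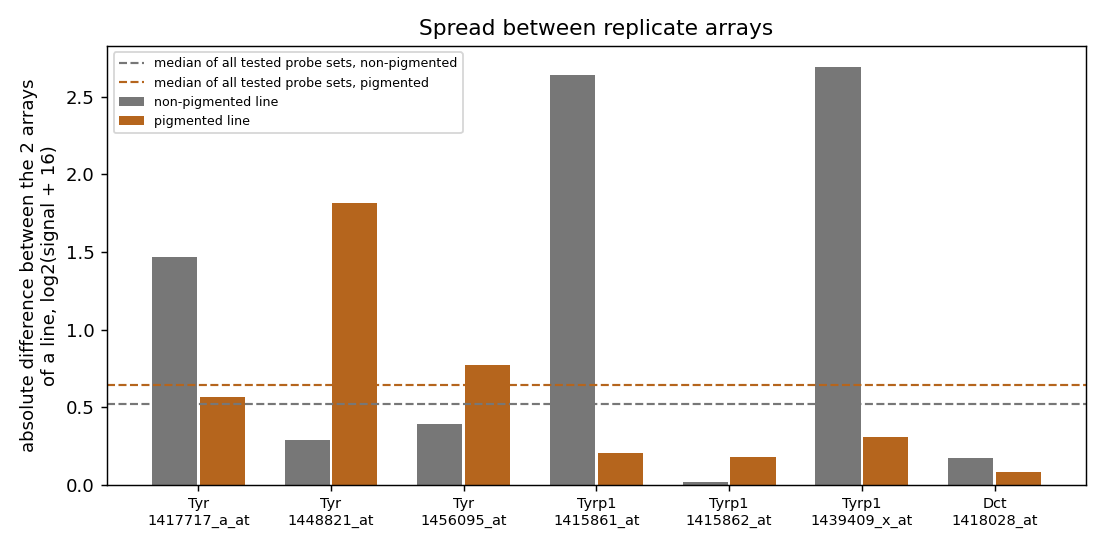
Absolute difference of log2(signal + 16) between the 2 arrays of a line for each probe set, as bars for the non-pigmented (grey) and the pigmented line (brown). Dashed lines mark the median over all tested probe sets, 0.52 and 0.64, and the bars of Tyrp1 1415861_at (2.64) and 1439409_x_at (2.69) in the non-pigmented line are the tallest.

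Whether the 3 genes changed by unequal amounts was examined through their ratio within each array, using for each gene the probe set with the highest mean log2 value over the 4 arrays. For Tyrp1 this was 1439409_x_at, which was the brightest of the 3 in both non-pigmented arrays but dimmer than 1415861_at in both pigmented arrays. The log2 ratio of Tyr to Dct was -2.27 and -3.57 in the non-pigmented and -0.16 and -0.81 in the pigmented arrays, a difference between the lines of 2.43 on the log2 scale. This direction rested on the choice of the Tyr probe set: with 1448821_at the difference was -0.25 and the lines overlapped, with 1456095_at it was 2.96, and with all probe sets of each gene averaged it was 1.72. The log2 ratio of Tyr to Tyrp1 was -2.65 and -6.81 in the non-pigmented and 0.29 and -0.58 in the pigmented arrays, a difference of 4.58 (1.90 with Tyr 1448821_at, where the lines overlapped, and 5.11 with 1456095_at). The log2 ratio of Tyrp1 to Dct was 0.38 and 3.24 in the non-pigmented and -0.45 and -0.22 in the pigmented arrays, a difference of -2.15. With 1415862_at in place of the brightest Tyrp1 probe set this last difference was -0.37, and that of Tyr to Tyrp1 was 2.80. Each of the 3 pairs, by the brightest probe sets, had a two-sided exact permutation p of 0.333 (0.333 adjusted over the 3 pairs), the smallest that this test can give with 2 arrays against 2. Unequal change was therefore not shown by this test, and no model-based test of the ratios was run. A ratio of signals from different probe sets compares their changes and says nothing of which RNA is more abundant.

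In the pigmented arrays several of these signals were near the top of the array's range. Dct reached 86.5% and 70.1% of the highest signal in pigmented replicates 1 and 2, Tyrp1 1415862_at 83.2% and 56.5%, and Tyr 1417717_a_at 77.2% in replicate 1, while its 11698 in replicate 2 compares with a highest signal of 29212 there. No saturation flags were used here, and whether these bright signals understate the difference was not tested.

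By the smallest Euclidean distance between log2 values centred on their mean over the 4 arrays, among 12555 other genes, the genes most like Tyr (1417717_a_at) were Bace2 (0.48), Mrgprb1 (0.69) and Mcoln3 (0.96). Bace2 encodes a protease that cleaves the melanosomal fibril protein Pmel, and Mcoln3 an endolysosomal cation channel. Bace2 gave signals of 81.3 and 33.4 in the non-pigmented and of 7035 and 6537 in the pigmented arrays. Those most like Dct were Grap (0.14), Pmel itself (0.21) and Col4a4 (0.30), and Pmel gave signals of 1075 and 811 against 19703 and 19844. Those most like Tyrp1 1439409_x_at were Gm6297 (0.06), Zkscan4 (0.45) and Ptgds (0.45), the last a prostaglandin D2 synthase with signals of 1766 and 8666 in the non-pigmented and of 11391 and 17043 in the pigmented arrays. Between the same probe sets, the distance was 2.64 for Tyr and Dct, 2.96 for Tyrp1 and Dct and 5.48 for Tyr and Tyrp1. These depended on the probe set: with 1415862_at for Tyrp1, the distance to Dct was 0.43, with 8 of the 12555 other genes nearer to Dct, and that to Tyr 1417717_a_at was 3.01. With Tyr 1448821_at the distance to Dct was 1.36 and that to Tyrp1 1415862_at 1.18. Gm6297 (2.81 in non-pigmented replicate 1) and Grap (4.10 and 2.55 in the non-pigmented arrays) were so dim that their likeness depends on the pseudocount.

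The partners of the family in melanin synthesis moved unevenly. Over 7 lists with 82 genes, of which 71 were tested by their brightest probe set, 11 rose in the pigmented line and none fell by limma, with a median log2 difference of 0.26. Of all 12558 genes tested 0.788% rose and 1.16% fell, with a median of 0.07. With the RNA integrity pair as a block 17 of the 71 were higher and 1 lower. Among the 11, the non-pigmented mean of Bace2, Ednrb, Kit and Tspan10 lay under the filter, so these 4 passed it through the pigmented arrays alone. The calls of these 4 are given as a description only.

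Of 7 melanosome matrix and membrane protein genes tested, 6 rose and 1 did not pass, with a median of 5.78. Bace2 and Tspan10 were among the 6, and their calls are a description only. The smallest p-values were those of Trpm1, a cation channel (6.07 ± 0.40, SE; adjusted p of 0.0113), and Bace2 (6.62 ± 0.53, SE; adjusted p of 0.0137). The list named melanosome transporters had 7 genes tested. Of these, Oca2, an anion channel protein needed for tyrosinase activity, rose by 6.27 ± 0.44 (SE, adjusted p of 0.0128 by limma). The other 6 did not pass, and the median of the 7 was 0.10. Among these 6 was Slc45a2, with a log2 difference of 2.99 and an adjusted p of 0.0888 by limma. Another was Atp7a, the pump that loads copper onto tyrosinase, with a log2 difference of 0.02 and a 95% interval of -0.99 to 1.03.

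Among 21 genes that sort tyrosinase and Tyrp1 to melanosomes, 3 had an unadjusted p under 0.05 by limma. Their log2 differences were 2.98 for Rab38, 2.07 for Hps3 and 2.06 for Hps4. None of the 21 passed at the adjusted threshold, with a median of 0.54. Likewise 0 of 10 genes of folding in the endoplasmic reticulum passed, with 0 at an unadjusted p under 0.05 and a median of -0.32. Of 8 genes of other enzymes of tyrosine, dopa and dopachrome 0 passed, with 1 at an unadjusted p under 0.05. Mif, which can convert a form of dopachrome in the test tube, had a log2 difference of 0.26 with a 95% interval of -0.43 to 0.96.

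Of 13 regulators of tyrosinase family transcription tested, Mitf rose and 12 did not pass, with 5 of the 13 at an unadjusted p under 0.05 and a median of 0.68. Mitf gave signals of 796 and 1576 in the non-pigmented and of 13405 and 10158 in the pigmented arrays, a log2 difference of 3.36 ± 0.47 (SE) with an adjusted p of 0.0347. The neural crest regulator Sox10, which also acts on pigment genes, gave 8268 and 8558 against 8602 and 10232, a log2 difference of 0.16 with a 95% interval of -0.56 to 0.87. Among those that did not pass, the log2 difference was 2.69 for Tfeb, a relative of Mitf (adjusted p of 0.0573), 1.76 for Tfap2a (0.154) and -2.33 for Lef1, a partner of beta-catenin (0.107). Of 5 upstream receptor genes tested 3 rose and 2 did not pass by limma. Among the 3 were the stem cell factor receptor Kit (5.66 ± 0.48, SE, adjusted p of 0.0138) and Met (3.65 ± 0.37, SE, adjusted p of 0.0177). The 3 also held Ednrb, and the calls of Kit and Ednrb are a description only.

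Outside the family, 1085 tested genes had the core CATGTG in a promoter window. Of these 12 rose (1.11%) and 14 fell (1.29%), beside 0.788% and 1.16% of all genes, with a median log2 difference of 0.11. Of the 39 other genes with the 10-base run, 4 were tested and 0 were called by limma.

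The labelled cell type was checked against marker genes. All 10 melanocyte markers passed the filter, but Kit and Ednrb passed it through the pigmented arrays alone, so their calls are a description only. Besides the family, 6 of the other 7 rose in the pigmented line, Kit and Ednrb among them, against 0.788% of all genes. The summed signal of the 10 was 14695 and 24523 in the non-pigmented and 122767 and 123202 in the pigmented arrays. This sum includes the 3 family genes, so it is no separate check of the labelled cell type. Within it Tyrp1 (1439409_x_at) alone gave 1426 and 9313 in the non-pigmented arrays. Of 10 Schwann cell markers 7 were tested, of which S100b and Mbp fell (log2 differences of -5.45 and -5.83), against 1.16% of all genes. The other 5 did not pass. Their log2 differences were -3.75 for Sox2, -2.79 for Pmp22, -2.42 for Gfap, -0.59 for Cdh19 and 1.95 for Foxd3. The summed signal of the 8 on the array was 20931 and 24414 in the non-pigmented and 2986 and 3956 in the pigmented arrays. Much of the non-pigmented sum came from the called genes, S100b (5759 and 13314) and Mbp (11562 and 3445). In the remaining lists no gene was called by limma. Of 6 retinal pigment epithelium markers, the other source of these enzymes in the mouse, Rpe65, Ttr, Best1 and Lrat were under the filter, and the summed signal was 1467 to 2527 in the non-pigmented and 816 to 837 in the pigmented arrays. The 2 tested were Rlbp1 and Rdh5. Rlbp1 gave 323 and 1573 in the non-pigmented and 120 and 46.5 in the pigmented arrays, a log2 difference of -2.99. For Rdh5 the signals were 1066 and 616 against 297 and 603, a log2 difference of -0.91. Under the filter were also 5 of 8 keratinocyte, 4 of 8 fibroblast, 3 of 7 immune and 4 of 5 endothelial markers. Their summed signals in the non-pigmented and the pigmented arrays were 619 to 631 and 583 to 613 (keratinocyte), 902 to 1017 and 1567 to 1679 (fibroblast), 1403 to 3104 and 1250 to 1493 (immune), and 320 to 360 and 439 to 502 (endothelial). At an unadjusted p under 0.05 by limma were 1 keratinocyte, 1 fibroblast, 1 immune and 0 endothelial markers. The log2 difference was -3.02 for Krt10, 2.11 for Col1a2 and -2.05 for Lyz2. Krt10 gave 306 and 264 in the non-pigmented and 8.84 and 39.4 in the pigmented arrays. The part of other cells in the family's signals was not tested, and in RNA of whole cultures fewer cells that express a gene and less RNA per cell cannot be told apart.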

How the data were processed

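The intensity of each probe set was deposited by the authors as a linear value. The software was Affymetrix Expression Console per the submitters' processing notes, and its version and summary algorithm are not given in the sources used here. The mean signal after trimming 2% at either end was 500.002 or 500.003 in every array. Of 45101 probe sets 64 controls were left out. Probe sets under the 40th percentile of the mean log2(signal + 16), a log2 value of 6.44, were left out, which left 27022. Lines were compared with limma 3.58.1 in R 4.3.3 (lmFit, eBayes with intensity trend), with 2 residual degrees of freedom and no covariate. Exact permutation tests used scipy 1.17.1, figures matplotlib 3.10.9, and the code was tested on simulated data. The number of arrays limits the precision.

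Named were all family probe sets, the 3 genes of most like pattern for each family gene and the 2 called genes with the smallest p in each list. Others, among them Atp7a, Slc45a2, Rab38, Hps3, Hps4, Mif, Sox10, Tfeb, Tfap2a, Lef1 and the markers, were chosen after their values were seen, as was the 10-base run. Members and lists were chosen with earlier results of these data known. Alternatives were the pseudocount, filter, normalization, variance model, 1 probe set per gene, blocks by date and by RNA integrity (a Gapdh ratio over 3), and leaving out each array. The Entrez numbers of all 7 probe sets had the same symbol in RefSeq. Genes with several symbols or none were not used here for lists.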

Additional observations from a re-analysis of the deposited data

How the results depend on the processing

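With 2 arrays per line, the intervals are wide and a missed call decides little. Tyr 1417717_a_at, Tyr 1456095_at, Tyrp1 1415862_at and Dct kept their direction and stayed past the threshold in every alternative that tested them, as fitted with other pseudocounts, filters, normalizations, variance models, blocks and with each array left out. Across these the difference of Dct ran from 4.01 to 4.34, that of Tyr 1417717_a_at from 5.95 to 7.42 and that of Tyrp1 1415862_at from 3.64 to 3.97. No family probe set reversed, and 4 to 6 of the 7 were called when single arrays were left out. With both pigmented arrays above both non-pigmented arrays in all 7, neither leaving out an array nor adding a block could reverse a direction. The call of Tyr 1456095_at remains a description only. With single arrays left out, the difference ran from 5.95 to 7.42 for Tyr, from 0.76 to 3.45 for Tyrp1 (1439409_x_at) and from 4.17 to 4.34 for Dct. With 1 probe set per gene, Tyrp1 was represented by 1439409_x_at alone and had an adjusted p of 0.332.

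The number of called probe sets was 402, and it was 251 without the filter and 1255 with the RNA integrity pair as a block. It was 238 without non-pigmented replicate 1 and ran from 170 (without non-pigmented replicate 2) to 765 (without pigmented replicate 1) when single arrays were left out. A line left with 1 array took its spread from the other line. Deviations of same-date arrays from the mean of their line correlated at -0.52. With 2 arrays per line both same-date pairs must give the same value, and pairs of equal replicate number the same value with opposite sign. The correlation is therefore not particular to the date. With the date as a block the count was 378. A scaling that centred each array on its median moved the median of all differences from 0.16 to -0.09, and the 7 family differences fell by about as much. The cause of these shifts was not tested. With Tyr 1448821_at, the difference in the ratio of Tyr to Dct turned from 2.43 to -0.25. The alternatives with other probe sets of Tyr and Tyrp1 in the ratios were chosen after seeing the data.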
